A study of Mus musculus with 9 samples.

Results

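Open chromatin shared by 3 populations of mouse peritoneal macrophages, and lying away from the ends of genes, is described here region by region. ATAC-seq, which uses Tn5 transposase to tag accessible DNA for sequencing, had been done on sorted cells, and the authors deposited 1 merged list of peaks for each population. Overlapping peaks of the 3 lists (1 bp or more) were merged to 36843 regions. A region was kept if it held a peak of every list and lay more than 1 kb from every start and end of a protein-coding gene in RefSeq GRCm38. Below, an end of a gene means either of its outer boundaries, the start included. That left 4315 shared distal regions, 41.7% of the 10356 regions called in all 3 lists. They are 18.6% of the 23185 distal regions, whereas 44.2% of the 13658 regions near gene ends, or 6041, were called in all 3 lists. The regions were thus chosen by their peak calls in the 3 lists and by position, and these shares are a description.

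The 9 samples form 3 groups of 3, all of genotype Cx3cr1CreERT2-IRES-EYFP/+ Rosa26-stopfl-tdTomato/+. In these mice a Cre recombinase expressed from Cx3cr1 and activated by tamoxifen switches on tdTomato, so that label depends on Cx3cr1 activity when the drug is given. Monocyte-derived macrophages were taken on day 4 after 2 ml of thioglycollate, an irritant that recruits blood monocytes to the cavity. Tissue-converted macrophages followed 2 ml of thioglycollate and a tamoxifen diet of 8 weeks, and the labels state no treatment particular to tissue-resident macrophages. All mice were injected with IL-4 complexes (5 µg of IL-4 and 25 µg of antibody) on alternate days starting 4 days before harvest, so no group is free of IL-4. Cell origin and treatment cannot be told apart, and ages are not given. Each list merges 3 samples, so no value has a spread between replicates and no test between groups was possible. Intervals are 95% Wilson (shares) or Newcombe (differences) intervals over regions, cover counting error only, and regions of 1 genome are not replicates. The lists held 33694 monocyte-derived, 15552 converted and 24348 resident peaks at unknown depth, so absence of a region from a list can also mean that it was below detection. All 20 genes of a list of macrophage surface and core genes, Csf1r and Adgre1 (F4/80) among them, had a region of some class in the body or the 10 kb on either side, as did 13730 of all 21631 protein-coding genes. The same held for 18 of 18 housekeeping genes, 11 of 14 dendritic cell markers, 8 of 16 eosinophil and neutrophil markers, 6 of 13 B cell markers, 6 of 16 T and NK cell markers, 3 of 14 mesothelial and stromal markers and 1 of 9 mast cell markers. Such a region says nothing of the level of a gene's RNA.

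Distal open regions include enhancers, insulators and promoters of shorter or unannotated transcripts. In macrophages the enhancer repertoire is set by lineage factors such as PU.1 and C/EBP proteins, joined by factors that answer signals, among them AP-1, NF-kappaB, STAT6 downstream of the IL-4 receptor, and nuclear receptors. Peritoneal macrophages depend on retinoic acid and on GATA6, and they are a common model of how a tissue shapes macrophage identity.

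Some shared distal regions cover an annotated transcription start that lies inside a gene rather than at its outer end, and sequence was at hand only at annotated starts and for miRNAs. The 250 bases before 4 such starts at listed macrophage genes are shown as examples, picked after the sequences had been seen, of motif matches close to a start in a shared distal region. They are from RefSeq (GRCm38.p6), 5′ to 3′ on the strand of the gene, and end at the base before the start, with capitals marking the motif described for each in the next paragraph and not every searched motif. The mature let-7i is shown because its hairpin is cut by the edge of a shared distal region, with capitals marking its seed (bases 2 to 8).
Rarb, chr14:16575477-16575726, minus strand: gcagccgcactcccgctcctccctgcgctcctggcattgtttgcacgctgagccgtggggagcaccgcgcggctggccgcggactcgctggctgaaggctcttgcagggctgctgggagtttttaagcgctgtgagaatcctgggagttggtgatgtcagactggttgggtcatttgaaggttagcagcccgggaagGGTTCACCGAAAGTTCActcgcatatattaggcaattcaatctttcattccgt
Nr4a1, chr15:101266596-101266845, plus strand: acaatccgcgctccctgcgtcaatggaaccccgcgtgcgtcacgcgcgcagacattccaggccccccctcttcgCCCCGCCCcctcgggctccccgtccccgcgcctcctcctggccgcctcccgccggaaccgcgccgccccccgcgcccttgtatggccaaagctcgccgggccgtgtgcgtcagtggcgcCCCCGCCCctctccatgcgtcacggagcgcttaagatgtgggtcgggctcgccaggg
Egr2, chr10:67537316-67537565, plus strand: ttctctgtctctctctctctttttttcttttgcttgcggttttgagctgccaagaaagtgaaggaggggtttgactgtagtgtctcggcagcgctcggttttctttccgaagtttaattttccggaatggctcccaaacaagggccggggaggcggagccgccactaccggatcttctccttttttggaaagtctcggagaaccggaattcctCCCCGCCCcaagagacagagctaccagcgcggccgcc
Itgav, chr2:83724147-83724396, plus strand: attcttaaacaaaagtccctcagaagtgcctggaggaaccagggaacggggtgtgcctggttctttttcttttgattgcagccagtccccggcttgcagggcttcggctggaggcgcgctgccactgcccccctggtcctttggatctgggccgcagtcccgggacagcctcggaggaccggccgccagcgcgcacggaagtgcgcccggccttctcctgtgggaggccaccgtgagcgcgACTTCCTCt
mmu-let-7i-5p, chr10:122985698-122985719, minus strand: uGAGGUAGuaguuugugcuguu

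Rarb encodes retinoic acid receptor beta, and the capitals in its sequence are a direct repeat of a nuclear receptor half-site, the retinoic acid response element for which this promoter is known, at -53 to -37 from the start. The letters GGTTCA followed after 5 bases by AGTTCA, searched on both strands after the Rarb sequence had been seen, were found in 2 of 32619 start windows (0.00613%), each running from 250 bases before to 50 after a start. Nr4a1, an orphan nuclear receptor induced by many stimuli, holds the GC box GGGCGGGG, which KLF and SP factors bind, on the opposite strand at -176 to -169 and again at -57 to -50. A match to the CTCF pattern given further on lies between these boxes and is left in lower case. Egr2, a zinc-finger factor induced by IL-4 in macrophages, holds the same box on the opposite strand at -37 to -30. The GC box was present in 17.7% of all start windows. Itgav, the integrin alpha V chain used in the uptake of dying cells, holds the PU.1 letters GAGGAAGT on the opposite strand at -9 to -2, as did 3.22% of all windows. A match to letters is a description and not a measured binding site.

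Each of the 4 start windows overlapped a region called in every list, and where the peaks of each list lay relative to the start base was not examined. The shared region at the Rarb start, chr14:16575389-16575688, lay 144.6 kb from the nearest outer end of a gene. Peaks covered 300 bp of it in the monocyte-derived list, 125 bp in the converted list and 175 bp in the resident list, with best peak p-values of 1e-12, 3.69e-07 and 5.06e-06. Peak p-values are the authors' own and have a smallest value of 1e-12, called the floor below. They describe and rank peaks within a list, and each list holds few distinct values. The lists differ in length and depth is unknown, so equal or unequal p-values between lists are no measure of a difference in openness. Shares at the floor, and regions at the floor in some lists only, are given for each list on that footing. At the Nr4a1 start 250, 250 and 275 bp were covered in the same order of lists, with p-values of 3.37e-06, 5.61e-06 and 3.93e-06. The Nr4a1 region thus had much the same extent in the 3 lists and was above the floor in each. The Egr2 starts were covered by a pair of regions. The first, chr10:67537314-67537613, had 250, 125 and 200 bp covered and p-values of 3.85e-07, 2.24e-08 and 1.20e-05. The other, chr10:67537639-67537863, had 225, 125 and 175 bp covered and was at the floor in the monocyte-derived list alone. The Itgav region, chr2:83724214-83724538, was at the floor in every list, with 300, 300 and 275 bp covered.

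Annotated starts were found in shared distal regions more often than in distal regions that fewer lists called. Of the 4315 regions, 649 (15%, 14.0 to 16.1%) overlapped a start window, 508 of them a protein-coding window and 181 a lncRNA window, with 40 overlapping both. Among 11009 distal regions called in the monocyte-derived list only, 394 (3.58%) did so, a difference of 11.5 percentage points (10.4 to 12.6). Distal regions of the monocyte-derived and resident lists stood between, at 7.25%, and shared distal regions exceeded them by 7.80 points (6.37 to 9.19). Shared distal regions were also wider, with a median of 250 bp against 125 bp for the monocyte-derived-only class, and a wider region meets a window more easily. With regions of 200 to 300 bp only, the difference from the monocyte-derived-only class was 8.22 points (6.58 to 9.88), and with the centre of the region inside the window it was 9.62 points (8.61 to 10.7). The centre lay inside a start window in 12.6% of shared and 2.94% of monocyte-derived-only distal regions. Start windows make up 0.153% of the distal sequence between the first and last gene of each chromosome. That is a share of bases, to be set beside the shares by centre and not those by overlap. Regions with a start window lay a median of 6.44 kb from the nearest outer gene end, against 19.8 kb for those without.

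**Figure D1:**
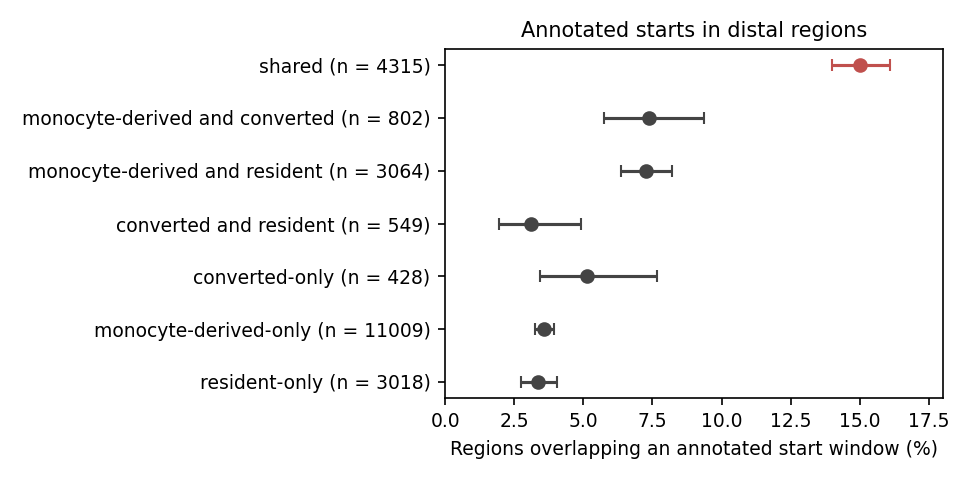
Percentage of distal regions that overlap an annotated start window (x axis, %), by which of the 3 peak lists call the region (y axis, with the number of regions). Points are shares and bars 95% Wilson intervals over regions. Shared regions stand at 15%, and the 6 other classes lie between 3.10% and 7.36%.

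Shared distal regions lay mostly inside genes. The centre of 2607 regions (60.4%, 58.9 to 61.9%) fell in the body of a protein-coding gene, where exon and intron could not be told apart with the annotation used. Gene bodies make up 38.9% of the 2533.8 Mb of distal sequence. The share inside genes was 4.61 points above that of monocyte-derived-only distal regions (2.87 to 6.33) and 3.33 points above that of regions of the monocyte-derived and resident lists (1.06 to 5.62). Against distal regions of the monocyte-derived and converted lists, where 62.8% were inside genes, the difference was -2.43 points (-6.02 to 1.27). The median distance to a gene end was 16.9 kb, with quartiles of 5.76 and 45.7 kb. Regions 1 to 5 kb from a gene end made up 22.5% of the shared class and 19.6% of the monocyte-derived-only class. The difference was 2.91 points (1.48 to 4.38). Distal regions of the monocyte-derived and resident lists stood at 22.6%, a difference of -0.0725 points (-2.02 to 1.85). Those of the monocyte-derived and converted lists stood at 22.3% (0.161, -3.09 to 3.19). The shares 10 to 50 kb away were 40.7% in both the shared and the monocyte-derived-only class. Another region of any class lay within 10 kb of 73.8% of shared distal regions, 4.88 points above the monocyte-derived-only class (3.29 to 6.43). This difference was 2.18 points (0.672 to 3.67) with overlap of 50% and 9.56 points (7.03 to 12) at equal list lengths, and that in the share inside genes was 2.74 points (0.876 to 4.59) at 2.5 kb from gene ends. A lncRNA gene was overlapped by 14.9% of shared distal regions, 2.32 points above the monocyte-derived-only class (1.11 to 3.57). Against regions of the monocyte-derived and resident lists the difference was 0.783 points (-0.861 to 2.40). Against those of the monocyte-derived and converted lists it was 2.73 points (0.0710 to 5.09). Shared distal regions were wider than monocyte-derived-only regions, and the part of width in this overlap was not tested.

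The regions were formed from overlapping peaks, so their extent in the 3 lists is given as a description. In 4213 of 4315 regions (97.6%, 97.1 to 98.0%) at least 1 bp was covered by a peak of every list, and in 102 the lists were joined only through overlapping neighbours. A single peak of each list made up 2824 regions (65.4%). In those, centres of the peaks of any pair of lists lay a median of 12.5 bp apart, and 50.0 bp at the 90th percentile. Monocyte-derived peaks covered a median of 250 bp of a region (quartiles 175 and 325), converted peaks 150 bp (125 and 225) and resident peaks 175 bp (125 and 250). The monocyte-derived peaks covered more than either other list in 2791 regions, the resident peaks in 593 and the converted peaks in 210. At shared regions near gene ends the order was the same, with medians of 300, 200 and 250 bp, so it was not particular to distal regions. List length, depth and peak width differ together between the lists, and their part in these widths was not tested.

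**Figure D2:**
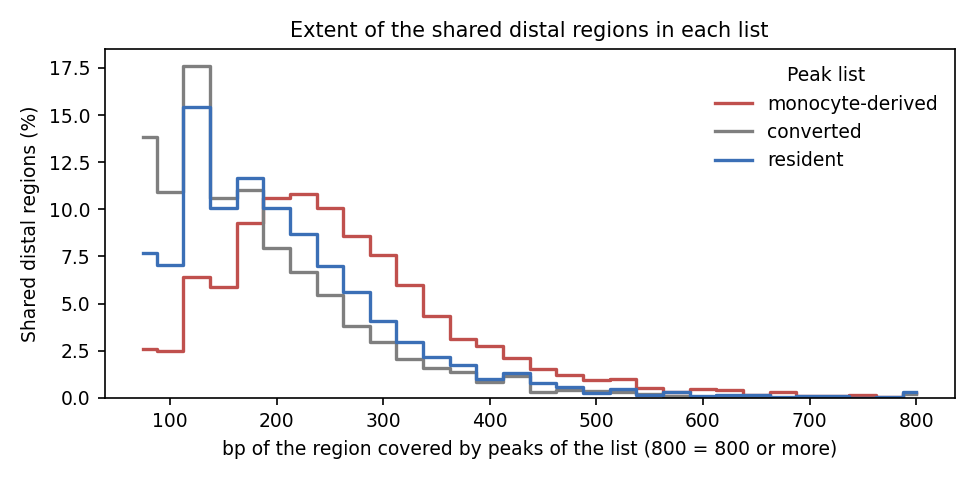
Base pairs of each of the 4315 shared distal regions that are covered by peaks of a list (x axis, bp in steps of 25 bp, values of 800 or more pooled at 800) against the percentage of regions (y axis), 1 line per peak list. The monocyte-derived line lies to the right, with a median of 250 bp against 150 bp for converted and 175 bp for resident.

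Shared distal regions were at the floor less often than shared regions near gene ends. The best peak was at 1e-12 in 1747 regions in the monocyte-derived list (40.5%), 774 in the converted list (17.9%) and 788 in the resident list (18.3%). The shares near gene ends were 60.0%, 36.0% and 36.1%. All 3 lists were at the floor in 442 shared distal regions (10.2%) and in 26.6% of those near gene ends, a difference of -16.4 points (-17.8 to -14.9), and 2310 shared distal regions (53.5%) were at the floor in no list. Annotated starts and the floor went together. Of the 442 regions at the floor in every list, 33.7% overlapped a start window, against 11.9% of the 2310 at the floor in none, a difference of 21.8 points (17.3 to 26.5). The former were also wider, with a median of 375 bp against 225 bp, and the part of width in this difference was not tested. Among regions with a start window, 23.0% of shared distal and 30.9% of near regions were at the floor in all lists, a difference of -7.98 points (-11.4 to -4.32). Without a start window the shares were 7.99% and 17.4%, a difference of -9.44 points (-11.4 to -7.57). The gap between distal and near regions was therefore smaller within each kind of region than over both.

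**Figure D3:**
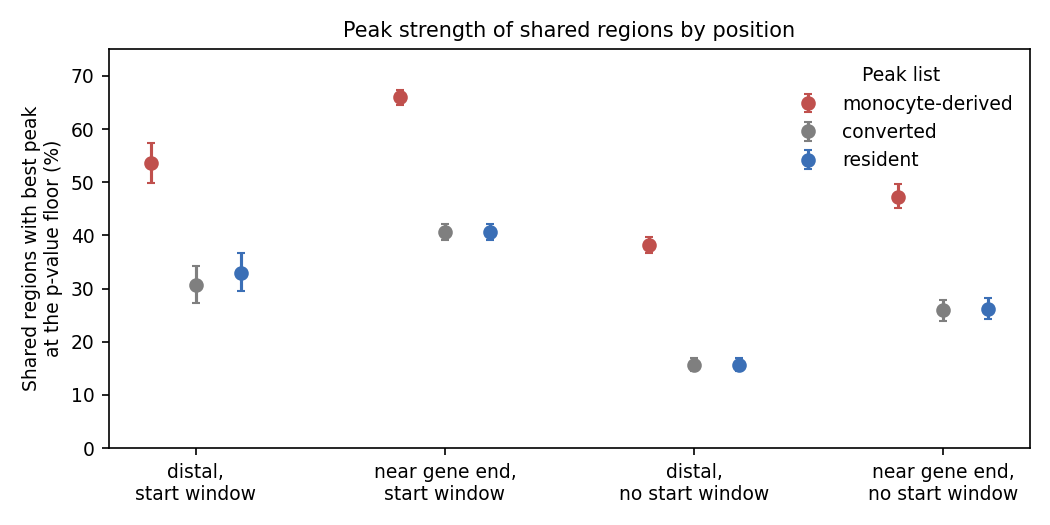
Percentage of shared regions whose best peak is at the smallest p-value, 1e-12 (y axis), by position and overlap with a start window (x axis), for each peak list, with 95% Wilson intervals over regions. In the monocyte-derived list the share is 53.6% for distal regions with a start window and 38.2% for those without, against 66.0% and 47.3% near gene ends.

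The sequence at the distal starts differed by class. After overlapping windows had been reduced to 1, 12447 start windows lay outside the 1 kb zones, and 626 of them were met by a shared distal region, 473 protein-coding and 153 lncRNA. Their median GC content was 62.0%, against 56.3% in 327 windows met by monocyte-derived-only regions and 48.0% in 11117 windows with no region. CpG dinucleotides numbered 7, 4.33 and 1.33 per 100 bases in the same order. The kind of start differed too. Protein-coding windows were 473 of the 626 shared, 200 of the 327 monocyte-derived-only and 2419 of the 11117 with no region. None of the contrasts in sequence was separated by kind of start. The GC box GGGCGGGG (either strand) stood in 35.3% of shared windows, 22.6% of monocyte-derived-only windows and 5.04% of windows with no region. The difference of 12.7 points from the monocyte-derived-only class (6.62 to 18.4) was 2.40 points (-8.02 to 12) among windows of 55 to 65% GC. That from windows with no region, 30.3 points (26.6 to 34.1), was 15.9 points (10.2 to 22.1) at the same GC content. Another 377 windows were met by other regions, which could include shared regions within 1 kb of a gene end. They held the box in 26.5%, 8.78 points below shared windows (2.85 to 14.5). Regions meeting the monocyte-derived-only windows were likewise not limited to distal ones. The AP-1 site, written TGACTCA or TGAGTCA, was less frequent in shared than in monocyte-derived-only windows. It stood in 4.79% of shared windows, 11.6% of monocyte-derived-only windows and 6.29% of windows with no region, a difference of -6.83 points from the monocyte-derived-only class (-11.0 to -3.21) that was -7.62 (-15.3 to -1.62) at 55 to 65% GC. The interval included 0 against windows with no region (-1.5, -2.99 to 0.519) and against the 377 windows met by other regions (7.16%, difference -2.37, -5.74 to 0.576).

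Other motifs were searched in the same windows on both strands. The CTCF pattern (CC, any 3 bases, AGG, any base, GGC), from the motif of the insulator factor, stood in 7.35% of shared windows and 1.66% of those with no region, a difference of 5.69 points (3.88 to 8.02), but did not differ detectably from monocyte-derived-only windows (5.20%, difference 2.15, -1.32 to 5.16). The E-box CACGTGAC of MITF and TFE factors stood in 4.15% against 1.53% (difference 2.62, 0.237 to 4.68), and within 200 bp the interval included 0 (1.51, -0.768 to 3.38). Windows met by other regions held this E-box in 4.77%, and the difference from them was -0.621 points (-3.57 to 1.92). The STAT6 pattern (TTC, any 4 bases, GAA) stood in 4.15% against 10.1% (difference -5.94, -9.90 to -2.56), and at 55 to 65% GC the interval included 0 (-2.67, -9.29 to 2.16). The RUNX letters TGTGGTTT stood in 1.12% against 3.36% (difference -2.25, -4.87 to -0.362), which at 55 to 65% GC was -1.46 (-6.43 to 1.44). Against windows met by other regions the intervals for CTCF, STAT6 and RUNX included 0. For PU.1 (GAGGAAGT), C/EBP (TTGCGCAA), the GATA letters AGATAAG and the IRF pattern, GAAA repeated after 2 bases, the intervals against the monocyte-derived-only class included 0. PU.1 stood in 3.67% and 4.89% of windows. Absence of these letters from a window draws nothing about the factor, and shared distal regions away from annotated starts were not searched.

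The regions were spread thinly over genes. Of 21631 protein-coding genes, 2555 (11.8%) had a shared distal region in the body or the 10 kb on either side, 1859 of them with 1 region, 497 with 2 and 199 with 3 or more. The share was higher in longer genes, from 4.34% of genes under 10 kb to 28.3% of genes of 100 kb and over, and 1284 of the 4315 regions lay in no such window. A region can count for several genes. Among 437 genes in 26 lists drawn up for macrophages, peritoneal subsets and other cell types, 101 (23.1%) had one. Shares of the lists are set beside 11.8% for all genes, 8.09% for genes under 50 kb and 24.4% for longer ones. Of the 13730 genes with a region of any class there, 18.6% had a shared distal region. All 21 lineage factors and all 18 housekeeping genes had a region of some class there, as did 8 of 19 identity factors of other tissues.

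**Figure D4:**
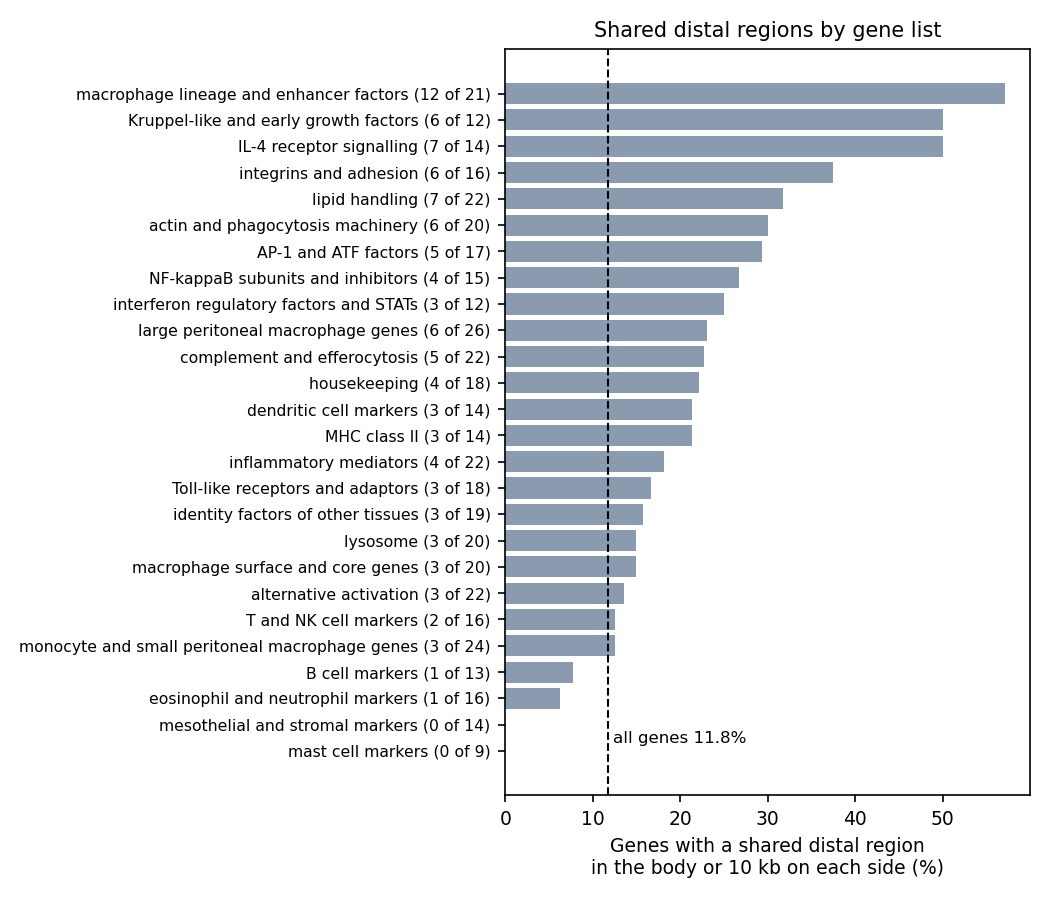
Percentage of genes of each list with a shared distal region in the body or 10 kb on either side (x axis), with the counts beside the list names (y axis). The dashed line is the share of all protein-coding genes, 11.8%. Lineage factors stand at 57.1% and mast cell and mesothelial markers at 0.

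Lineage factors had shared distal regions at many of the listed genes. Of 21 transcription factors of macrophage identity and enhancers, 12 (57.1%) had a shared distal region, 8 of 11 that are 50 kb or longer and 4 of 10 shorter ones. Among genes under 50 kb the share was no higher than that of IL-4 receptor signalling (6 of 12) or of Kruppel-like and early growth factors (5 of 10). Fli1, an ETS factor of blood and endothelium, had 4 inside its body. The one at chr9:32508739-32508988 had 250, 200 and 200 bp covered in the monocyte-derived, converted and resident lists, with p-values of 6.73e-06, 1e-12 and 1e-12. It was thus at the floor in both tissue lists and not in the monocyte-derived list, whereas chr9:32500939-32501188 was at the floor in the monocyte-derived list alone. Mef2c, a MADS-box factor, held chr13:83571989-83572338 at the floor in every list, with 350, 250 and 250 bp covered. Mef2d and Ets2 had 2 regions each. The wider of the Ets2 pair, chr16:95728764-95729238, had 450, 425 and 375 bp covered. A single region lay 1.13 kb from the end of Cebpb, the C/EBP beta gene, with 100, 125 and 125 bp covered and p-values of 4.10e-06, 3.00e-06 and 1.20e-05. The Runx1 region, chr16:92697264-92697538, covered an annotated start 95.8 kb inside the gene. Spi1, which encodes PU.1, and Cebpa had none.

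The signalling path from the IL-4 receptor had regions at 7 of its 14 listed genes, 6 of them among 12 genes under 50 kb. Il4ra, the receptor chain, had a region 9.07 kb from its end with 250, 200 and 225 bp covered and p-values of 1.50e-06, 4.87e-06 and 5.63e-06. Stat6, the transcription factor of the path, had one 1.18 kb from its end that was narrow in every list, at 125, 75 and 125 bp. A region in Jak1, a kinase bound to the receptor, was at the floor in all lists with 325, 300 and 300 bp covered (chr4:101155539-101155863). The phosphatase gene Ptpn1 had 3, among them chr2:167924964-167925338, which was at the floor in the monocyte-derived and resident lists and had a p-value of 4.87e-06 in the converted list. Socs3, a feedback inhibitor of cytokine receptors, had chr11:117963264-117963688, at the floor in the converted list alone, and Irs2, an adaptor of the receptor, had a narrow one of 100, 75 and 75 bp. With a limit of 2.5 kb from gene ends in place of 1 kb, 4 of the 14 genes had a region, as at equal list lengths.

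Of the genes known for alternative activation, 3 of 22 had a shared distal region (13.6%), near the 11.8% of all genes. All 3 were among the 17 under 50 kb, and none of the 5 long ones had one. The count was 6 with a window of 50 kb and 5 by nearest gene end, and its difference from the IL-4 receptor path was not tested. Arg1, the arginase that marks IL-4-treated mouse macrophages, had 2 beyond its higher-coordinate end. The nearer, chr10:24930164-24930563, lay 2.69 kb away with 375, 250 and 350 bp covered and p-values of 1e-12, 2.24e-08 and 1.85e-07. The other, chr10:24931564-24931763, lay 4.09 kb away with 200, 75 and 125 bp covered and p-values from 1.69e-06 to 4.70e-06. Both overlap a lncRNA gene, and RNA of the lncRNA was not measured here. The remaining genes with regions were Egr2, described above, and Tgm2, transglutaminase 2, whose region chr2:158133064-158133438 had 325, 225 and 375 bp covered. Mrc1 (the mannose receptor), Chil3 (Ym1) and Retnla (RELM alpha) had none, nor any shared region near their ends. Irf4 had none, and the shared region in its body or the 10 kb on either side lay near a gene end.

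The count of early response factors with a region moved with the peaks used. Among Kruppel-like, EGR and NR4A genes 6 of 12 had a shared distal region, 5 of the 10 under 50 kb. The count was 2 at equal list lengths, 3 with p at most 1e-05 and 2 with p at most 1e-10 in every list, and 9 with a window of 50 kb. Nr4a1 had a region outside the gene, chr15:101246239-101246638, with 400, 300 and 300 bp covered and at the floor in every list, besides the one at its start. Nr4a2 and Klf9 had 2 each. The Klf9 pair, 6.01 and 5.61 kb from the gene, lay in a lncRNA gene, and the wider was at the floor in the monocyte-derived list alone. Of 17 AP-1 and ATF genes, all under 50 kb, 5 had a region. Fos had one on either side of its body. At chr12:85485939-85486213 the converted list was at the floor, with 275, 175 and 250 bp covered in the 3 lists. Fosb had 2, among them a region with p-values of 1.50e-06, 1.51e-06 and 1.52e-06 in the 3 lists, and Batf had 1.

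NF-kappaB genes had a region at 4 of 15 and interferon regulatory factors and STATs at 3 of 12. Bcl3, an atypical inhibitor that acts in the nucleus, had 3, with chr7:19824164-19824488 at the floor in the monocyte-derived and converted lists and at 1.49e-08 in the resident list. Nfkbiz, a related nuclear regulator, had a neighbouring pair, of which chr16:55821939-55822338 was at the floor in the monocyte-derived and resident lists. The Nfkb2 region covered an annotated start and was above the floor in each list. Irf5, a factor of inflammatory macrophages, had 2, and Irf1 and Irf2 had 1 each, all above the floor in all 3 lists. Toll-like receptor genes and adaptors had a region at 3 of 18, 2 of them among 15 genes under 50 kb. Inflammatory mediators, all under 50 kb, had one at 4 of 22 (18.2%), beside 8.09% of all genes of that length. The Hif1a region, chr12:73907664-73908088, covered an annotated start of this oxygen-sensing factor with 425, 325 and 400 bp. It was at the floor in the monocyte-derived and resident lists. Tlr2, a receptor for bacterial lipoproteins, had 1 region 3.37 kb from the gene, with 250, 75 and 175 bp covered.

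Genes known to mark resident large peritoneal macrophages had a shared distal region at 6 of 26, and genes of monocytes and small peritoneal macrophages at 3 of 24. Selp, encoding P-selectin, held the strongest of the first list, chr1:164135264-164135788, at the floor in every list with 525, 525 and 500 bp covered. A neighbour in the same gene, chr1:164135989-164136238, had 225 bp covered in each list and was at the floor in the monocyte-derived list alone. Serpinb2, a serine protease inhibitor, had 3, of which the widest, chr1:107496814-107497188, had 375, 275 and 300 bp covered and p-values of 1e-12, 1.85e-07 and 1.85e-07. Gata6, Timd4 and Icam2, markers of the resident population, had none. In the second list Vcan, the proteoglycan versican, had 4 regions within 2.01 to 3.41 kb of its higher-coordinate end, in the body. Those at chr13:89739289-89739613 and chr13:89740264-89740613 were at the floor in every list, the latter with 350, 325 and 275 bp covered. Cd209a, a lectin, had 1 region, 125 bp wide in every list and at the floor in the resident list alone. Cx3cr1, whose locus drives the Cre in these mice, and Ccr2 had none.

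Of the macrophage surface and core genes 3 of 20 had a shared distal region, near the share of all genes. Emilin2, an extracellular matrix glycoprotein, had 4, and chr17:71285939-71286263 was at the floor in every list with 300, 325 and 250 bp covered. Another, chr17:71263189-71263413, was at the floor in the resident list alone. Csf1r, the receptor for the macrophage growth factor CSF1, had 1 region 2.87 kb from its end, with 375, 200 and 175 bp covered and p-values of 3.36e-06, 6.74e-06 and 5.63e-06. Sirpa, the inhibitory receptor for CD47, also had 1. Adgre1 had none of the shared distal class. Of the 20 genes fixed by name, 7 had at least 1 and 13 had none, Cd74 among the latter.

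**Figure D5:**
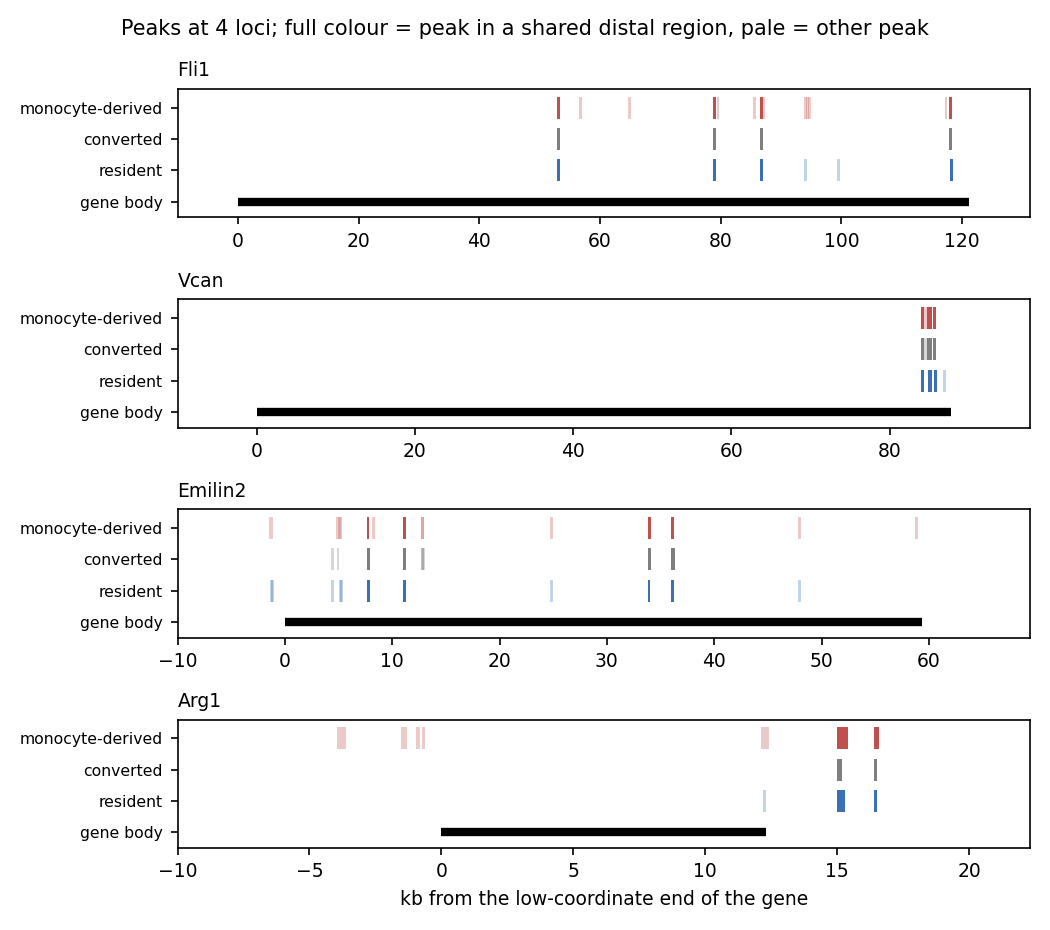
Peaks of the monocyte-derived, converted and resident lists at Fli1, Vcan, Emilin2 and Arg1 (rows), with the gene body as a black bar. The x axis is distance in kb from the low-coordinate end of the gene. Full colour marks peaks in shared distal regions, 4, 4, 4 and 2 at these genes, pale colour marks other peaks, and the narrowest peaks are drawn wider than to scale so that they can be seen.

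Genes for the work of a macrophage were represented in moderate numbers. Counts in brackets are those of genes of 50 kb or longer. Integrin and adhesion genes had a region at 6 of 16 (3 of 8) and lipid handling at 7 of 22 (4 of 7). Actin and phagocytosis machinery had one at 6 of 20 (4 of 9) and complement and efferocytosis at 5 of 22 (2 of 5). MHC class II had one at 3 of 14 (1 of 2) and lysosome at 3 of 20 (0 of 1). Cd36, a scavenger receptor for oxidised lipid, had 2, both at the floor in the monocyte-derived list alone and with 350 bp covered there against 75 to 250 bp in the other lists. Abca1, the cholesterol exporter, had 1 region 1.10 kb from its end with 200, 100 and 150 bp covered. Ctsz, a lysosomal cysteine protease, had 3, all at the floor in the monocyte-derived list alone. The lysosomal proton pump subunit Atp6v0d2 had a neighbouring pair in its body, above the floor in all lists. Elmo1, which passes the engulfment signal to Rac, had 2, one of them 215.2 kb inside the gene with p-values of 1.85e-07, 3.69e-07 and 1.85e-07. H2-DMa and H2-DMb2, which load peptides on class II molecules, share 1 region, chr17:34135339-34135613. Cd86, a costimulatory ligand counted in the MHC class II list, had 1 at the floor in the monocyte-derived list alone. The class II genes H2-Aa, H2-Ab1 and H2-Eb1, and Ciita, had none.

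Lists that served for comparison were not empty of shared distal regions. Housekeeping genes had one at 4 of 18, all under 50 kb. Ywhaz, a 14-3-3 adaptor, had 2, with chr15:36792289-36792813 at the floor in every list and 525, 325 and 375 bp covered. Identity factors of other tissues had one at 3 of 19. The region in Pax6, an eye and brain factor, had 250, 350 and 275 bp covered and p-values of 6.91e-06, 1e-12 and 1.85e-07. Of dendritic cell markers 3 of 14 had one, all of them 50 kb or longer, and Tcf4 had 3. T and NK cell markers had one at 2 of 16 and B cell markers at 1 of 13. The region in Gata3, the T helper factor, was at the floor in every list with 325, 275 and 300 bp covered (chr2:9879539-9879863). The regions counted for Cd79a and Cd247 lay nearer to Arhgef1 and Creg1 than to the marker gene. Eosinophil and neutrophil markers had one at 1 of 16, in the neighbourhood of Siglecf, and mast cell (9) and mesothelial (14) markers had none. The part of other cells in these lists was not tested.

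The genes with most shared distal regions, apart from Sfi1 and Myo3a described below, were mostly long. Zfhx3, a zinc-finger homeobox factor of 682326 bp, had 10. Of these, chr8:108387239-108387463 and chr8:108723189-108723463 were at the floor in the monocyte-derived list alone, and chr8:108910914-108911213 in the converted list alone, with 250 bp covered in each list. App, the amyloid precursor protein gene, also had 10, of which chr16:85072639-85072963 was at the floor in the monocyte-derived and resident lists and chr16:84966964-84967413 in the monocyte-derived and converted lists. Wdfy3, an autophagy scaffold, and Abcc4, an exporter of cyclic nucleotides and prostanoids, had 7 each. Tnr, Ston2, Macrod2, Oxr1, Cmss1 and Pde4d had 6 each. The Macrod2 regions clustered, with 5 of the 6 between chr2:140778314 and chr2:140794513, and chr2:140790414-140790688 was at the floor in every list. Oxr1, linked to resistance to oxidative stress, had chr15:41612214-41612588 at the floor in every list with 375, 300 and 325 bp covered. Gipc2, Ptpn21 and Septin11 had 5 each, and the Gipc2 region chr3:152114789-152115138 had 350, 325 and 350 bp covered, at the floor throughout.

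Small RNA genes were rare among the regions. A miRNA gene was overlapped by 6 of 4315 (0.139%) and by 0.0182% of monocyte-derived-only distal regions, a difference of 0.121 points (0.0316 to 0.285). The interval included 0 against distal regions of the monocyte-derived and resident lists (0.106, -0.0632 to 0.273). It also did against shared regions near gene ends (0.248%, difference -0.109, -0.287 to 0.0817). The part of region width in these overlaps was not tested. The 6 genes were Mir5620, Mir6236, Mirlet7i, Mir713, Mir6539 and Mir6361. The let-7i hairpin, from 122985640 to 122985724 on chromosome 10, meets the region chr10:122985714-122986238 over 11 bp at its 5′ end, and 6 bp of the mature 5p strand printed above lie within it. The gene is on the minus strand, so nearly all of the region lies upstream of the hairpin. Its seed GAGGUAG is the one that defines the let-7 family. The region lay 5.82 kb from Mon2, with 525, 250 and 450 bp covered and p-values of 1e-12, 4.86e-06 and 1.05e-05. The Mir5620 region, which also covers an annotated start of Clcn4, was at the floor in every list. A tRNA gene was overlapped by 7 regions (0.162%), against 0.263% of monocyte-derived-only distal regions (difference -0.101, -0.243 to 0.0887). A snRNA gene was overlapped by 0, against 13 of the 11009 monocyte-derived-only distal regions (0.118%). Transcribed pseudogenes were overlapped by 28 (0.649%), 0.376 points above the monocyte-derived-only class (0.145 to 0.675). Against distal regions called in a pair of lists the intervals included 0, as with the monocyte-derived and resident lists (0.290, -0.0562 to 0.618). A 50 kb window at the transcribed pseudogene Pisd-ps1 and Sfi1 held 27 shared distal regions, and its part in the 28 was not examined.

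A few loci held many regions close together or very wide ones. Windows of 50 kb with 6 or more shared distal regions numbered 5 and held 89 of the 4315 (2.06%), of which 40 (44.9%) were at the floor in all lists. Sfi1, a centrin-binding protein of the spindle pole, had 61 in the body or the 10 kb on either side, out of 166 regions of any class there. The other dense windows lay in Myo3a (9 regions), at the pseudogenes Gm10222 and Gm10925 (8) and at a place on chromosome 4 with no gene (10). At Gm10222 and Gm10925 the lists differed, with 0 of 8 regions at the floor in the monocyte-derived list, 7 in the converted list and 4 in the resident list. Without the dense windows the difference in start windows from the monocyte-derived-only class was 11.7 points and the floor difference from near regions -17.1 points. The 12 widest regions at the floor in every list measured 800 to 3300 bp, 5 of them in Sfi1 and 3 overlapping a pseudogene. The widest, chr17:39843089-39846388, covers Rn18s-rs5, a pseudogene of 18S ribosomal RNA, with 3300, 3300 and 3275 bp covered. Another, chr2:98666189-98667013, lay 1034.5 kb from any protein-coding gene end and had 825 bp covered in every list. The part of repeated sequence in these counts was not tested. The widest also included ordinary genes, among them the start of Fbxo33 and that of the lncRNA Snhg8, a host of small nucleolar RNA.

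At the other end of the scale, 5 regions lay farthest from any protein-coding gene end. The farthest, chr1:48881464-48881638, was 1955.7 kb from Slc39a10 and at the floor in the resident list alone, with 150, 125 and 175 bp covered. A region 1411.5 kb from Cntnap5b was at the floor in every list, and one 1253.5 kb from Zeb2, a zinc-finger homeobox factor, had 250, 225 and 375 bp covered. At the 1 kb limit of the rule, the regions just inside lay 1001 bp from Lmnb1, Me2, Ctsz and Nudt9 and 1003 bp from Slc46a3. Those just outside lay 1000 bp from Pkd1, 998 bp from Yeats4 and Fmc1, 997 bp from Clk3 and 995 bp from Nfic. The Nudt9 region, with 525, 350 and 375 bp covered, and the Pkd1 region, with 425, 325 and 350 bp covered, both overlapped an annotated start window.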

How the data were processed

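Macrophages of 9 samples in 3 groups were sequenced per the labels. Per the submitters' processing notes, Bowtie2 2.2.9 and the build mm10 (GRCm38) were used. Not given in the sources used here: which peak caller ran, whether reads were shifted for Tn5, and how duplicates and replicates were handled. Any of these can change which regions are called. The authors deposited 1 list per group with a p-value for each peak, at 46 distinct values in the monocyte-derived, 24 in the converted and 20 in the resident list, and no counts, so depth is unknown. RNA-seq was not analysed here.

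Peaks overlapping by 1 bp were merged and annotated with RefSeq GRCm38.p6 (21631 protein-coding genes). Regions were compared by shares with Wilson and Newcombe intervals at 95%. A start window runs 250 bases before to 50 after a RefSeq start, 21045 protein-coding and 11574 lncRNA. Motifs were planned for all regions but searched in start windows only, since no genome was used, and genomic shares run from the first to the last gene of each chromosome. Of the 26 gene lists, 437 genes were found and 2 (Ighm, Tpsab1) were not. The members and lists were chosen with earlier results of these data known. Named are the 12 widest regions at the floor, the 5 farthest, 5 on either side of the limit, the 15 genes with most regions, up to 3 per list, and 20 fixed genes, of which 1 is not reported here. Runx1, Mef2c, Jak1, Hif1a, Abca1 and the regions singled out within a gene were named after their values were seen. On 3000 simulated sites, 100% were assigned as planted. In separate simulated pairs of shares, drawn independently, 94.8% of Newcombe intervals held the true difference. Alternatives were overlap of 50%, other distances, gene windows and gene ends, equal list lengths, stricter p-values and, added later, dense windows, region width, GC content and the centre rule. Scripts ran in Python 3.11.15 with pandas 2.3.3, numpy 2.4.6 and, for figures, matplotlib 3.10.9.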

Additional observations from a re-analysis of the deposited data

How the results depend on the processing

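No paired analysis was possible because the 3 samples of a group share 1 merged list, which also prevents leaving out a replicate. The number of shared distal regions, 4315, came to 2148 at equal list lengths and 442 with p at most 1e-10 in every list. Genes with one, 2555, came to 1471 and 341 under those settings and to 5199 with a window of 50 kb. The share of regions with a common stretch, 97.6%, was 98.2% with overlap of 50%, 96.7% at equal lengths, 96.0% with p at most 1e-05 and 99.5% with p at most 1e-10. The floor difference from near regions was 0 with p at most 1e-10, where nearly every peak left is at the floor by construction. The GC box difference from the monocyte-derived-only class was 2.40 points at 55 to 65% GC. That of PU.1 turned from -1.22 to 0.573 points there, its interval including 0 in both. The differences in start windows, in share inside genes and in neighbours kept their sign, with intervals that excluded 0, in all settings run for them, with start windows from 8.22 to 24.0 points. Settings on dense windows, width, GC content and the centre, and all those on start windows, were chosen after seeing the data. Counts of genes in lists moved with the settings: IL-4 receptor signalling, 7, was 4 at equal lengths or 2.5 kb and 1 with p at most 1e-10. Kruppel-like and early growth factors, 6, were 2 at equal lengths, 3 with p at most 1e-05 and 2 with p at most 1e-10. Lineage factors, 12, were 1 with p at most 1e-10 and 9 to 13 otherwise. Alternative activation, 3, was 0 with p at most 1e-10, 6 with 50 kb and 5 by nearest gene end, and monocyte genes, 3, were 8 and 5 under the last pair. Unknown depth limits every absence from a list.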

Other observations

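Shared distal regions made up unequal parts of the 3 lists, which differ in length. They were 70.8% of the 6094 distal regions of the converted list, 39.4% of the 10946 of the resident list and 22.5% of the 19190 of the monocyte-derived list. Shared regions near an end of any protein-coding gene were counted in the same way, in the body or the 10 kb on either side. Genes with a shared distal region also had such a region in 45.3% of cases, against 32.9% of all protein-coding genes. Median length was 45.4 kb for the former and 17.3 kb for all. The regions covered 1.21 Mb in all. Chromosome 2 held the most, 357, and X the fewest, 60, or 1.39%, against 2.00% of shared regions near gene ends. Within the shared distal class, 925 regions (21.4%) had a best resident peak with a p-value above 1e-05, as did 44 for monocyte-derived peaks and 0 for converted peaks.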
